A study of Mus musculus with 8 samples.

Results

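Tight junctions are the belts of membrane protein that close the gap between neighbouring epithelial cells near the gut lumen. Claudins form the strands and decide whether a junction seals or lets ions and water pass, occludin and tricellulin join them, and scaffold proteins with PDZ domains tie the strands to actin and to the polarity complexes that place them. In the colon, sealing claudins line the crypts and surface, pore-forming claudins are known mainly from the crypt base and the small intestine, and loss of this barrier is a known feature of intestinal graft-versus-host disease. A list of 35 tight junction genes was followed here in whole colon: 16 claudins, 5 proteins of occludin-type or 3-cell contacts, 3 junctional adhesion molecules, 7 scaffolds and 4 polarity proteins. All 35 were found by gene symbol on the array, each with a single probe set, among 19505 genes in all.

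The colons came from 8 WT BALB/c mice with graft-versus-host disease (GVHD), in which donor T cells attack the tissues of the recipient. Each mouse had been lethally irradiated and had received C57BL/6 bone marrow (BM) and T cells as allogeneic hematopoietic cell transplantation (allo-HCT) on day 0. From day 0 to day 7, 4 of them were given PBS by mouth and the other 4 were given hBD-2, human beta-defensin 2, at 1.2 mg/kg, and colon was taken on day 7. Irradiation, transplant and disease were common to both groups, no colon without GVHD was analysed here, and the labels give no age or sex. The comparison addresses how oral hBD-2 acted on gene expression in the diseased colon, and every difference below is hBD-2 minus PBS on the log2 scale, so that 1 unit is a doubling. Levels are log2 values after RMA, which suit comparisons of a gene between mice but not of one gene with another.

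The arrays of hBD-2 mice 1 and 3 stood apart from the other 6. On the leading principal component, with 34.6% of the variance, they scored 25.2 and 25.4, against -14.9 to -2.45. The mean deviation of 6 posterior colon Hox genes from their own means was 0.73 and 0.67 in these mice. It was -0.060 and -0.11 in hBD-2 mice 2 and 4, and -0.36 to -0.25 in PBS mice. Every hBD-2 mouse thus lay above every PBS mouse in this mean, mice 1 and 3 by far the most. The highest mouse was hBD-2 1 or hBD-2 3 only for Hoxb13 and Hoxd13. It was at 9.32 and 6.20 there, against at most 7.22 and 4.49 in the other 6. For Hoxa13, Hoxd10, Hoxd11 and Hoxd12 the highest mouse was another. Epithelial markers overlapped between the groups: the mean deviation of 18 epithelial marker genes lay between -0.077 and 0.044 in PBS mice and between -0.045 and 0.082 in hBD-2 mice. In whole tissue, fewer cells of a type and less RNA per cell cannot be told apart. Values of the 35 genes are therefore given also without these 2 arrays where that moves them by over 1.5 times or turns their sign.

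None of the 35 genes passed an adjusted p of 0.05 (limma, Benjamini-Hochberg over 19505 genes), against a background of 0.0410% of all genes. That background is 8 genes, and it ran from 0 to 11 with single arrays left out. At an unadjusted p under 0.05 there were 7 members, where 11.8% of all genes lay. Cldn9, Lsr, Magi1, Pard6b and Patj were higher (background 5.85%), and Mpdz and Jam3 were lower (background 5.98%). The groups did not overlap for 6 members, against 6.41% of all genes: Cldn9, Lsr, Magi1 and Patj lay higher (background 2.80%) and Cldn4 and Mpdz lower (background 3.60%). The fitted difference was above 0 in 25 of the 35 members and in 53.5% of all genes. Its median was 0.062 over the members and 0.012 over all genes.

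**Figure D1:**
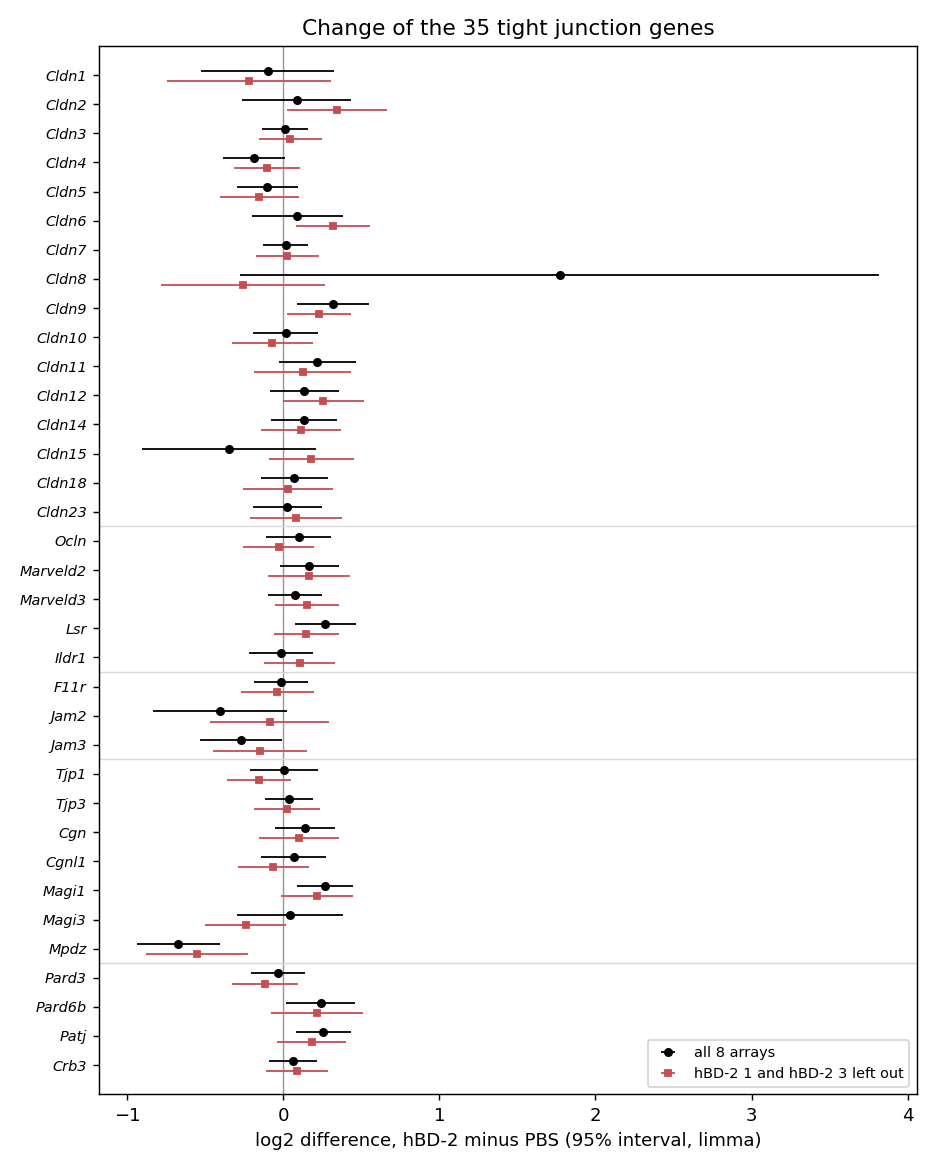
Differences between hBD-2 and PBS mice for the 35 tight junction genes, in log2 units with 95% intervals from limma, in the order of their roles (claudins at the top, then occludin-type and 3-cell proteins, junctional adhesion molecules, scaffolds and polarity proteins). Black circles use all 8 arrays and red squares leave out hBD-2 1 and hBD-2 3. Cldn8 moves from 1.77 to -0.26 between the settings, and Mpdz stays at -0.67 and -0.55.

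The 250 bases before the start are shown for 3 members with a single start in RefSeq (build GRCm38.p6), because their values in the mice had different patterns. Cldn15 was low and Lsr high in hBD-2 mice 1 and 3, and Cldn4 was lower in all 4 hBD-2 mice than in the PBS mice. Capitals mark the GC box, GGGCGG on either strand. Each sequence runs 5′ to 3′ on the strand of its gene.
Cldn15, chr5:136967619-136967868, + strand: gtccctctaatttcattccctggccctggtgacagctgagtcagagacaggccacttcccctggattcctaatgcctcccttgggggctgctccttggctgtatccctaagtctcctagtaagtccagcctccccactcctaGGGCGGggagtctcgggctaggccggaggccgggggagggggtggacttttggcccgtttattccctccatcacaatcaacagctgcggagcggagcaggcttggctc
Lsr, chr7:30973470-30973719, - strand: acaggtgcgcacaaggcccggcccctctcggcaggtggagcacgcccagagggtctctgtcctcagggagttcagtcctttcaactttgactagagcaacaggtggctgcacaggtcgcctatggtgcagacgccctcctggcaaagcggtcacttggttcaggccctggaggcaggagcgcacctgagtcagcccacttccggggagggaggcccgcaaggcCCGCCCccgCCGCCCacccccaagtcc
Cldn4, chr5:134946935-134947184, - strand: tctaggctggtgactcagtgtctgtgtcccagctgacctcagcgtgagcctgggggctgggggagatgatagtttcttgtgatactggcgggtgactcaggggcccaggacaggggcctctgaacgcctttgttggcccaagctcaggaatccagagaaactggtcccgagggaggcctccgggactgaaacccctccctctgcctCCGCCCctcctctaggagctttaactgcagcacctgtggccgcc
The Cldn15 and Cldn4 windows hold 1 GC box each and the Lsr window holds 2.

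RefSeq windows were at hand for 28 of the 35 members, 43 windows in all since some genes have several starts, which can overlap. A GC box stood in 27 of them (62.8%), from 23 genes, against 32.7% of all 32851 windows of this length, which include those of genes that code for no protein. The letters TATAAA, the TATA box, were in 4 windows (9.30%, against 12.4% of all), those of Cldn2, Marveld2 and Pard3. AACCNGTT, a form of the Grainyhead-like site, was in 2 windows (4.65%, against 1.79%), those of Cgn and Cldn5. TTTATNG, a form shared by posterior Hox and Cdx factors, was in none of the 43 and in 9.81% of all windows. These are matches of letters on both strands in short windows, and no binding was measured. No window was at hand for the other 7 members, so Cldn8, Cldn9, Cldn23, Jam2, Jam3, Marveld3 and Mpdz were not searched.

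Cldn8, a sealing claudin known from the distal colon, had the widest spread of the list. Its log2 level was 6.57, 6.27, 7.06 and 6.13 in PBS mice 1 to 4, and 10.46, 6.37, 10.16 and 6.12 in hBD-2 mice 1 to 4. In hBD-2 mice 1 and 3 it was therefore far above the other 6 mice, while hBD-2 mice 2 and 4 lay within the range of the PBS mice. The distance from the lower of these 2 mice to the highest of the other 6 was 3.10 log2 units, the third widest such distance of 19505 genes. The group difference was 1.77 (SE 0.92, 95% interval -0.28 to 3.82, adjusted p = 0.481 by limma), and -0.26 (SE 0.23) without the 2 mice. Cldn17, the gene next to Cldn8 in the assembly GRCm38.p6, did not have this pattern and lay between 4.33 and 4.92 in all 8 mice.

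Cldn15, which forms cation pores and is best known from the small intestine, showed the opposite arrangement. Its log2 level was 10.61, 10.72, 10.68 and 10.38 in PBS mice 1 to 4 and 9.68, 10.87, 9.77 and 10.68 in hBD-2 mice 1 to 4. Only hBD-2 mice 1 and 3 were low, at least 0.61 units under the lowest of the other 6. The group difference was -0.35 (SE 0.25, adjusted p = 0.613 by limma), and it turned to 0.18 (SE 0.12) without them.

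Cldn2, the pore of crypt cells for cations and water, was at 8.07, 7.90, 7.87 and 8.05 in PBS mice 1 to 4 and at 7.73, 8.56, 7.87 and 8.07 in hBD-2 mice 1 to 4. The groups overlapped, with hBD-2 mouse 2 highest and hBD-2 mouse 1 lowest of all 8. The difference in log2 level was 0.087 (SE 0.16, adjusted p = 0.858 by limma), -0.080 without hBD-2 2, and 0.34 (SE 0.14, adjusted p = 0.361) without hBD-2 1 and hBD-2 3.

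Cldn3, Cldn4 and Cldn7 are the sealing claudins found along most of the colon epithelium. Cldn3 lay at log2 levels of 10.50, 10.46, 10.54 and 10.42 in the PBS mice and 10.49, 10.55, 10.43 and 10.50 in the hBD-2 mice. Cldn7 was at 11.11, 11.11, 11.10 and 11.004 in the PBS mice and at 11.08, 11.08, 11.10 and 11.13 in the hBD-2 mice. In both genes the groups overlapped, and their ranges over 8 mice, 0.14 and 0.13 units, were narrower than those of 98.5% and 99.0% of all genes. Such narrow ranges were not theirs alone: over the 18 epithelial markers this share ran from 16.3% (Phgr1) to 99.9% (Krt8). By mean level Cldn3 and Cldn7 were at percentiles 95.3 and 97.8 of all genes. The 95% interval of the difference was -0.14 to 0.16 for Cldn3 and -0.13 to 0.16 for Cldn7. The differences, 0.012 and 0.015, were 0.045 and 0.024 without hBD-2 mice 1 and 3, and both signs turned without PBS 4, that of Cldn3 also without hBD-2 2.

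Cldn4, whose gene neighbours Cldn3, behaved otherwise. It was at 10.03, 10.03, 10.17 and 10.01 in PBS mice 1 to 4 and at 9.92, 9.998, 9.65 and 9.92 in hBD-2 mice 1 to 4. Every hBD-2 mouse was lower than every PBS mouse, though by as little as 0.016 units, with hBD-2 mouse 3 lowest. The difference was -0.19 (SE 0.089, adjusted p = 0.441 by limma), and -0.10 (SE 0.093) with the arrays of hBD-2 mice 1 and 3 left out.

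Cldn23, a claudin of surface colonocytes, was at 9.11, 8.93, 9.18 and 8.95 in the PBS mice and at 9.03, 9.30, 8.999 and 8.94 in the hBD-2 mice. The groups overlapped, and the difference in log2 level was 0.026 (95% interval -0.19 to 0.25). Without hBD-2 2, the highest mouse, it was -0.052, and without mice 1 and 3 of that group 0.082.

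Among the claudins that are not typical of colon epithelium, Cldn9 was the one with an unadjusted p under 0.05. Its log2 level was 4.14, 4.20, 4.08 and 4.23 in the PBS mice and 4.35, 4.39, 4.80 and 4.40 in the hBD-2 mice. All hBD-2 mice were higher, hBD-2 mouse 3 most, with a difference of 0.32 (SE 0.10, adjusted p = 0.276 by limma). Its neighbour in the genome, Cldn6, differed by 0.089 (SE 0.13), with overlapping groups, and by 0.32 (SE 0.11) when hBD-2 mice 1 and 3 were left out. Cldn1, a claudin of the skin barrier, was at 4.69, 4.74, 4.68 and 4.75 in the PBS mice and at 4.91, 5.02, 4.57 and 3.97 in the hBD-2 mice. The PBS mice were closely alike and the hBD-2 mice lay on both sides of them, with a difference of -0.098 (SE 0.19) that turned to 0.12 without hBD-2 4 and was -0.22 without mice 1 and 3. These 3 genes, Cldn18 and Mpdz lie in the lowest 25% of all genes by mean level, and the deposited values carry no measure of background.

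The other claudins differed between the groups by 0.22 log2 units or less in their fitted differences. Cldn11, known from myelin, was at 0.22 (SE 0.11) and at 0.13 without hBD-2 1 and hBD-2 3. Cldn12 stood at 0.14 (SE 0.10), and at 0.26 without them. Cldn14, known from kidney and inner ear, was at 0.14 (SE 0.095), and at 0.083 without hBD-2 1. Cldn5, the claudin of endothelium, stood at -0.10 (SE 0.088), and at -0.15 without the pair. Cldn18, of stomach and lung, and Cldn10, of kidney, were at 0.072 and 0.015, and at 0.029 and -0.070 without the pair. In all 6 the groups overlapped.

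**Figure D2:**
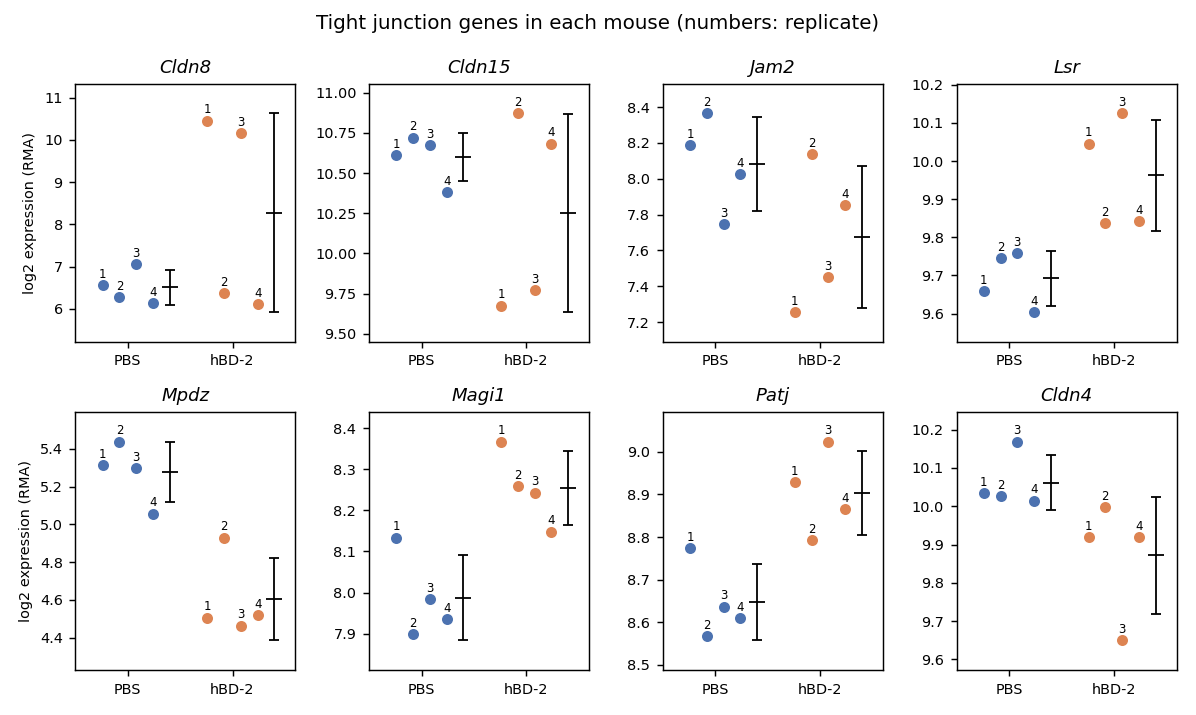
Log2 expression of 8 tight junction genes in each mouse, PBS in blue and hBD-2 in orange, with the replicate number above each point and the mean ± SD (n = 4) as a black bar. The axis of each panel has its own range. Cldn8 is high and Cldn15 low in hBD-2 mice 1 and 3, while the groups separate without overlap in Lsr, Mpdz, Magi1, Patj and Cldn4.

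Of the proteins of occludin type and of contacts between 3 cells, Lsr had the largest difference. Lsr encodes angulin-1, which brings tricellulin to the corner where 3 cells meet. Its log2 level was 9.66, 9.75, 9.76 and 9.60 in PBS mice 1 to 4 and 10.05, 9.84, 10.13 and 9.84 in hBD-2 mice 1 to 4. All hBD-2 mice were higher than all PBS mice, mice 1 and 3 most. The difference was 0.27 (SE 0.087, 1.21-fold, adjusted p = 0.268 by limma), and 0.15 (SE 0.092) without those mice. Marveld2, which encodes tricellulin itself, was at 0.17 (SE 0.085) and its groups overlapped. Ildr1, the other angulin on the list, was at -0.014 (95% interval -0.22 to 0.19), and at 0.11 without the pair.

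Ocln, encoding occludin, was at 9.96, 9.90, 10.12 and 9.88 in the PBS mice and at 10.16, 9.93, 10.22 and 9.95 in the hBD-2 mice. Here too mice 1 and 3 of the hBD-2 group were the 2 highest, while the other 2 lay among the PBS mice. The difference in log2 level was 0.099 (SE 0.093, adjusted p = 0.706 by limma) and turned to -0.029 without them. Marveld3, a relative of occludin, was at 0.075 (SE 0.077) and at 0.15 without them.

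Junctional adhesion molecules are immunoglobulin-type receptors, of which F11r (JAM-A) is the epithelial form, and Jam2 and Jam3 (JAM-B and JAM-C) are known from endothelium and stroma. F11r was at 11.01, 11.16, 11.11 and 11.14 in the PBS mice and at 11.07, 11.18, 11.16 and 10.95 in the hBD-2 mice. The groups overlapped and the difference was -0.014 (95% interval -0.19 to 0.16), and -0.037 without hBD-2 mice 1 and 3. Jam2 stood at 8.19, 8.36, 7.75 and 8.02 in PBS mice 1 to 4 and at 7.26, 8.14, 7.45 and 7.85 in hBD-2 mice 1 to 4. Its 2 lowest values were those of hBD-2 mice 1 and 3, and the others overlapped. The difference was -0.41 (SE 0.19, adjusted p = 0.446 by limma), and -0.086 (SE 0.17) without these mice.

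Jam3 was at log2 levels of 7.53, 7.80, 7.44 and 7.43 in the PBS mice and 7.28, 7.53, 7.04 and 7.28 in the hBD-2 mice. Only hBD-2 mouse 2 lay within the PBS range. The difference was -0.27 (SE 0.12, unadjusted p = 0.0463 and adjusted p = 0.413 by limma), and -0.15 (SE 0.13) without hBD-2 1 and hBD-2 3. Markers of endothelium and fibroblasts were lower as well. Over all genes 5.98% were lower and 5.85% higher at an unadjusted p under 0.05 by limma. Of 14 endothelial markers 6 were lower at an unadjusted p under 0.05 and 0 higher, with a median difference of -0.23, and none passed over all genes (limma). Their mean deviation was -0.0013 to 0.17 in PBS mice and -0.29 to 0.050 in hBD-2 mice, with Cdh5 at -0.48 and Eng at -0.57. Of 6 fibroblast markers 5 were lower and 0 higher, with Col3a1 at -0.52 and Lum at -0.87. Their mean deviation was 0.15 to 0.33 in PBS mice and -0.43 to 0.13 in hBD-2 mice. The part of these cells in the differences of Jam2 and Jam3 was not tested.

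Mpdz, a scaffold with many PDZ domains that binds claudins and junctional adhesion molecules, had the lowest p of the 35. Its log2 level was 5.31, 5.44, 5.30 and 5.06 in PBS mice 1 to 4 and 4.51, 4.93, 4.46 and 4.52 in hBD-2 mice 1 to 4. All hBD-2 mice were lower than all PBS mice, with hBD-2 mouse 2 closest to them. PBS mice averaged 5.28 ± 0.16 and hBD-2 mice 4.60 ± 0.22 (SD, n = 4 each), a difference of -0.67 (SE 0.12, 95% interval -0.94 to -0.40) or 1.59-fold. It did not pass over all genes (adjusted p = 0.0782 by limma). It passed with an intensity trend and robust prior (adjusted p = 0.0407), with array weights (0.0378) and without hBD-2 2 (0.0497), where 91, 68 and 11 of all genes passed, against 8 as fitted. Over all alternatives its adjusted p by limma ran from 0.0378 to 0.286. The difference was -0.55 (SE 0.14, adjusted p = 0.202) without hBD-2 1 and hBD-2 3. Mpdz is not confined to epithelium, and the lower fibroblast and endothelial markers given above stand beside it too; their part was not tested.

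Patj, the close relative of Mpdz that belongs to the Crumbs polarity complex, had a difference of the opposite sign. It was at log2 levels of 8.77, 8.57, 8.64 and 8.61 in PBS mice 1 to 4 and 8.93, 8.79, 9.02 and 8.87 in hBD-2 mice 1 to 4. All hBD-2 mice were higher, by 0.26 on average (SE 0.079, 1.19-fold, adjusted p = 0.255 by limma). Pard6b, a subunit of the Par polarity complex, was at 8.46, 8.37, 8.12 and 8.08 in the PBS mice and at 8.57, 8.39, 8.47 and 8.55 in the hBD-2 mice. PBS mouse 1 overlapped the hBD-2 range, and the difference was 0.24 (SE 0.099, unadjusted p = 0.0357 and adjusted p = 0.383 by limma). The other polarity genes were Crb3, a Crumbs protein of epithelia, at 0.062 (SE 0.068), and Pard3, the scaffold of the Par complex, at -0.033 (SE 0.077) and at -0.12 without hBD-2 1 and hBD-2 3.

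Among the other scaffolds Magi1, which carries PDZ and guanylate kinase domains, differed most. It was at 8.13, 7.90, 7.98 and 7.94 in PBS mice 1 to 4 and at 8.37, 8.26, 8.24 and 8.15 in hBD-2 mice 1 to 4. All hBD-2 mice were higher, although hBD-2 mouse 4 exceeded PBS mouse 1 by little. The difference in log2 level was 0.27 (SE 0.080, 1.20-fold, adjusted p = 0.243 by limma), and 0.22 (SE 0.10) without hBD-2 1 and hBD-2 3.

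Tjp1, encoding the scaffold ZO-1, was at 9.94, 9.88, 9.89 and 10.01 in the PBS mice and at 10.05, 9.81, 10.14 and 9.74 in the hBD-2 mice. Mice 1 and 3 of the hBD-2 group were the highest of the 8 and mice 2 and 4 the lowest. The difference was 0.0039 (95% interval -0.21 to 0.22), and -0.16 (SE 0.091) without mice 1 and 3. Magi3, a relative of Magi1, was likewise highest in mice 1 and 3 of the hBD-2 group, with overlapping groups and a difference of 0.045 (SE 0.15) that turned to -0.24 (SE 0.12) without them. Cgnl1, paracingulin, was at 0.068 and at -0.063 without that pair. Cgn, cingulin, stood at 0.14 (SE 0.086) and Tjp3, the scaffold ZO-3, at 0.037 (SE 0.069), both with overlapping groups. Cgn was at 0.077 without PBS 4 and Tjp3 at 0.00023 without PBS 2.

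The arrays of hBD-2 mice 1 and 3 were the 2 highest of 8 for 8 members (background 6.41%): Cldn8, Ocln, Lsr, Tjp1, Cgn, Cgnl1, Magi3 and Patj, of which 4 are scaffolds. They were the 2 lowest for 5 members (background 8.06%): Cldn4, Cldn15, Ildr1, Jam2 and Mpdz. Together that is 13 of 35, where 14.5% of all genes had these mice at one end; the pair was chosen for standing apart over all genes, and no test was made. The sizes differed widely, from a distance of 3.10 log2 units in Cldn8 and 0.61 in Cldn15 to 0.000355 in Cldn4. The sign of the group difference turned without this pair for 8 members, namely Cldn8, Cldn10, Cldn15, Ocln, Ildr1, Tjp1, Cgnl1 and Magi3. The share of all genes that turned was not counted. Tjp1, Ildr1 and Cldn10 were near 0 with all mice, at 0.0039, -0.014 and 0.015.

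**Figure D3:**
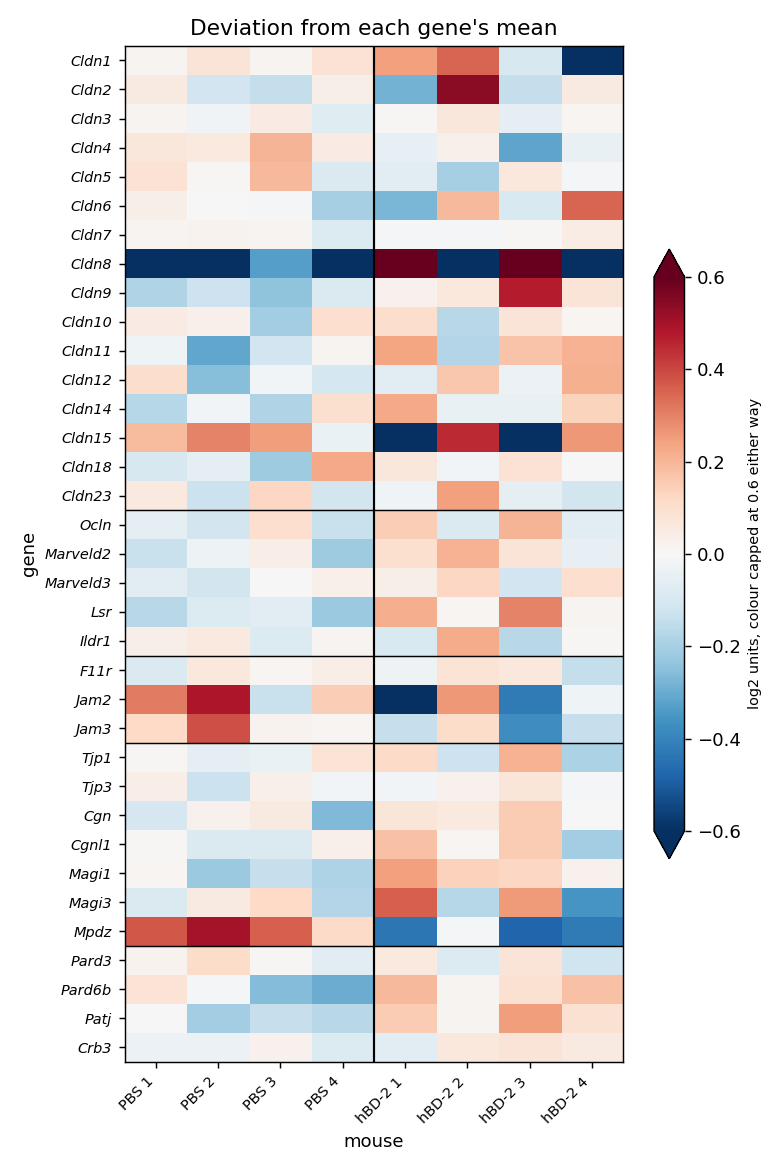
Deviation of each of the 35 tight junction genes from its own mean over the 8 mice, in log2 units, with red above and blue below the mean and the colour capped at 0.6 either way. Lines separate the gene roles and the groups of mice. Cldn8 is above and Cldn15 below its mean in hBD-2 1 and hBD-2 3, while rows such as Cldn3 and Cldn7 stay pale in all mice.

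Without hBD-2 1 and hBD-2 3 none of the 35 members passed over all genes (limma; 0.00% of all genes passed), and 4 had an unadjusted p under 0.05, against 12.8% of all genes. These were Cldn2, Cldn6 and Cldn9, which were higher, and Mpdz, which was lower. With all 8 mice, 11 members had a 95% interval that lay wholly within 0.25 log2 units of 0, a limit chosen after the values were seen: Cldn3, Cldn7, Cldn10, Cldn23, Marveld3, Ildr1, F11r, Tjp1, Tjp3, Pard3 and Crb3. Without hBD-2 1 and hBD-2 3 this held for 3 members, Cldn3, Cldn7 and Tjp3. The share of all genes within this limit was not counted, so these counts do not set the members apart. For 31 of the 35 the interval excluded a change of 1.5-fold in either direction (91.1% of all genes). The exceptions were Cldn8, Cldn15, Jam2 and Mpdz.

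Other junction genes were counted from lists chosen by role and not by the direction of their genes, though earlier results of these data were known. The background for these counts is 5.85% of all genes higher and 5.98% lower at an unadjusted p under 0.05 by limma. Of 30 further tight junction genes none passed over all genes by limma, and at an unadjusted p under 0.05 0 were higher and 3 lower, with a median difference of 0.0062. The lowest p-values were those of the exchange factor Arhgef18 at -0.24 (SE 0.079) and the angiomotin-type scaffold Amotl1 at -0.27 (SE 0.092). Of 13 adherens junction genes 1 was lower and 0 higher, with the adhesion molecule Nectin3 at -0.16 and vinculin (Vcl) at -0.13. Of 9 desmosome genes 1 was higher and 0 lower, with plakophilin 3 (Pkp3) at 0.20 and plakoglobin (Jup) at 0.13. Both lists had medians near 0, at 0.041 and 0.042.

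Gap junction genes and regulators held larger differences. The background for their counts is again 5.85% of all genes higher and 5.98% lower. Of 6 gap junction genes 2 were higher and 1 lower at an unadjusted p under 0.05, with the epithelial connexin Gjb1 at 0.64 (SE 0.13, adjusted p = 0.123 by limma) and Gjc1 at -0.44 (SE 0.10). Of 24 regulators 0 were higher and 5 lower, led by Zeb1, a repressor of epithelial junction genes that mesenchymal cells also express, at -0.42 (SE 0.076, adjusted p = 0.0824 by limma), and the epithelial factor Grhl1 at -0.40 (SE 0.12). Zeb1 passed with an intensity trend and robust prior (adjusted p = 0.0391) and with the lowest 50% of genes left out (0.0418), and Gjb1 passed in the former (0.0471). Over all genes 91 and 47 passed in these settings, against 8 as fitted. Of 12 cytokines that act on the barrier 0 were higher and 3 lower, with Tgfb1 at -0.35 and Il1b at -1.004, and a median of -0.039. No gene of these 3 lists passed over all genes (limma).

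**Figure D4:**
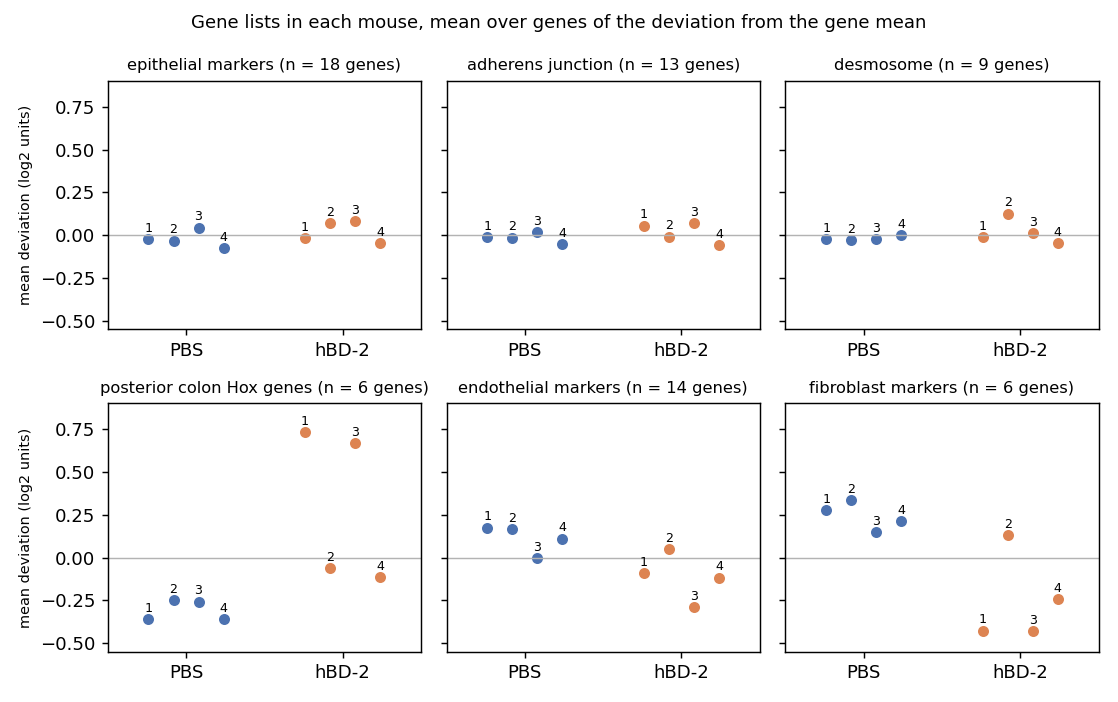
Mean deviation of 6 gene lists from their gene means in each mouse, in log2 units, PBS in blue and hBD-2 in orange, with the replicate number at each point and 1 scale for all panels. The means of epithelial, adherens junction and desmosome genes stay close to 0 in all mice. The mean of the posterior Hox genes, though not each gene, is high in hBD-2 1 and hBD-2 3. Endothelial and fibroblast markers are lower in most hBD-2 mice.

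Markers of further cell types were read beside these values, with the same background of 5.85% of all genes higher and 5.98% lower. Of 9 macrophage markers 7 were lower and 0 higher at an unadjusted p under 0.05, with Aif1 past the threshold over all genes (-0.96, adjusted p = 0.0467 by limma) and Mrc1 at -0.72. The call of Aif1 was lost in 13 of 18 alternatives, among them leaving out any 1 array (limma adjusted p 0.0540 to 0.227), with its difference in those between -0.89 and -1.04. Of 9 T cell markers 2 were lower, Cd4 at -0.61 and Cd3d at -0.30. Of 7 smooth muscle markers none was under 0.05, with Tagln at -0.21 and Smtn at -0.17, nor of 4 markers of enteric glia and myelin, with S100b at 0.078 and Sox10 at -0.080, nor of 4 mesothelial markers, with Msln at 0.22 and Lrrn4 at -0.13. Of 7 squamous markers 1 was higher, Krt14 at 0.29, with Krt5 at 0.17. Of 8 stomach markers none was under 0.05, with Atp4a at 0.23 and Gkn1 at 0.13, and of 5 pancreas markers 1 was higher, Cpa1 at 0.26, with Cela1 at 0.35. Cdx1 and Phgr1, at 0.21 and 0.27, were the 2 of 18 epithelial markers that were higher at an unadjusted p under 0.05, and 0 were lower. The part of these cells in the tight junction values was not tested.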

How the data were processed

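RNA from whole colon of 8 mice, 1 array each, was labelled with the Affymetrix WT Pico kit, per the labels' protocols. The deposited table holds log2 values of 22203 probe sets, made by the authors with oligo and RMA, per the submitters' processing notes. RMA corrects background, equalises the distributions of the arrays and summarises probes, so that a shift of all genes in a mouse would not be seen. The array's genome build: not given in the sources used here.

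Through GEO's platform annotation 19572 probe sets had 1 gene symbol, 0 had several and 2631 are unnamed here. All 19572 matched GRCm38.p6 gene identifiers. For genes with several probe sets the one with the highest mean was kept, giving 19505 genes. Medians of the arrays ran from 6.77 to 6.82 (log2), and precision is limited by the number of arrays. Groups and replicate numbers came from the titles. Differences were fitted with limma 3.58.1 in R 4.3.3 (lmFit, eBayes, two-sided, Benjamini-Hochberg over all 19505 genes, threshold 0.05). The procedure was tested on simulated data with independent noise in each gene and, unlike these data, no arrays that stood apart. Differences stand with moderated standard errors and 95% intervals.

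The members and lists were chosen with earlier results of these data known. The rule for naming genes gave values in every mouse for 10 chief colon junction genes, for members with an unadjusted p under 0.05 or groups that did not overlap, and for the 8 with the widest range. It named the 2 genes with the lowest p in each other list. Promoter windows came from RefSeq (GRCm38.p6). Alternatives were a robust prior with intensity trend, dropping the lowest 25% or 50% of genes, median centring, repeated quantile normalization, averaged probe sets, array weights, a block for the replicate number, leaving out single arrays or hBD-2 1 and hBD-2 3 together, a threshold of 0.1, and the posterior Hox or epithelial marker mean as covariate. Figures were drawn with matplotlib 3.10.9.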

Additional observations from a re-analysis of the deposited data

Results flagged for a closer look

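In the groups of 4 mice, each highest and lowest value was compared with the next, as a gap over the group's range with the limit 0.829 (Dixon). Of 70 such groups of tight junction genes 6 held a mouse past it, where chance gives about 1 in 20. Cldn4 was at a log2 level of 10.17 in PBS 3, against 10.01 to 10.03 in the other PBS mice. Cldn7 was at 11.004 in PBS 4, against 11.10 to 11.11, a gap of 0.099. Cldn9 was at 4.80 in hBD-2 3, against 4.35 to 4.40 in the rest of its group. Cldn11 was at 5.15 in hBD-2 2, against 5.50 to 5.57. In hBD-2 2 Mpdz was at 4.93, against 4.46 to 4.52, so that without this mouse its difference widened to -0.78. Crb3 was at 9.56 in hBD-2 1, against 9.69 to 9.71.

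Among the other genes named, Jup was at 10.34 in hBD-2 4 (others of the group 10.57 to 10.62), Cdx1 at 9.96 in hBD-2 3 (9.73 to 9.75) and Mrc1 at 9.67 in hBD-2 2 (9.27 to 9.33). Atp4a was at 6.85 in hBD-2 4 (6.33 to 6.39). In PBS 3 Rbp2 was at 7.13 (7.58 to 7.66) and Gkn1 at 4.48 (4.62 to 4.64). No mouse was left out for these values.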

How the results depend on the processing

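The count of members past an adjusted p of 0.05 was 0 with limma as fitted and 0 in the alternatives other than these: it was 1 (Mpdz) with an intensity trend and robust prior, with array weights and at a threshold of 0.1, and ran from 0 to 1 with single arrays left out. At an unadjusted p under 0.05 there were 7 members, 5 to 12 with single arrays left out (12 when hBD-2 2 was left out), and 4 when hBD-2 1 and hBD-2 3 were left out together. The share of all genes was 11.8% with all arrays and 12.8% without that pair. With single arrays left out it was not counted, so those counts do not set the members apart. Over all genes the count past 0.05 was 8, 0 to 11 with single arrays left out, 0 with the replicate block, with the epithelial mean as covariate or without hBD-2 1 and hBD-2 3, 4 with repeated quantile normalization, 91 with an intensity trend and robust prior, 68 with array weights, 16 or 47 with the lowest 25% or 50% of genes left out, and 81 at a threshold of 0.1. With a single array left out, 26 of the 35 differences moved by over 1.5 times or turned sign. The median difference of the members stayed between 0.043 and 0.078. Of the other junction genes 0 passed, 2 with an intensity trend and robust prior (Gjb1 and Zeb1), 1 with the lowest 50% of genes left out and 1 at a threshold of 0.1 (both Zeb1). With the lowest 25% or 50% of genes left out, 5 or 9 members, Mpdz among them, had no value.

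The labels do not say whether the replicate numbers pair the mice. Deviations from the group means correlated at -0.15, 0.14, 0.24 and 0.045 across genes for numbers 1 to 4. Mice of unlike numbers were not compared, so these values do not decide it. With the replicate block, 0 members passed and 10 had an unadjusted p under 0.05. The share of all genes under 0.05 in that fit was not counted, so the 10 do not set the members apart.

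Signs turned for 17 members in some alternative, all of them uncalled, and the cause was not tested. Without hBD-2 1 and hBD-2 3, Cldn8 was at -0.26, Cldn10 at -0.070, Cldn15 at 0.18, Ocln at -0.029, Ildr1 at 0.11, Tjp1 at -0.16, Cgnl1 at -0.063, Magi3 at -0.24, Fcgbp at -0.17 and Hoxd13 at -0.085. The posterior Hox mean was highest in that pair, and it was also higher in every hBD-2 mouse than in every PBS mouse. As a covariate it therefore overlaps with treatment, and its values are not those of leaving out the pair. With it, Cldn8 was at -1.37, Cldn10 at -0.095, Cldn15 at 0.43, Ocln at -0.10, Ildr1 at 0.16, Jam2 at 0.084, Tjp1 at -0.23, Cgnl1 at -0.13 and Magi3 at -0.42. Tff3 was then at -0.028, Fcgbp at -0.40, Hoxd13 (itself in that mean) at -0.57 and Msln at -0.040. With the epithelial mean, Cldn3 was at -0.0017, Cldn23 at -0.049, Tjp1 at -0.016 and Magi3 at -0.035. Array weights gave Cldn3 -0.0013, Cldn6 -0.0020 and F11r 0.00053, median centring gave Ildr1 0.0022 and F11r 0.0023, and repeated quantile normalization gave Cldn10 -0.034. With single arrays left out, Cldn1 ran from -0.23 to 0.12, Cldn2 from -0.080 to 0.20, Cldn3 from -0.0091 to 0.034, Cldn6 from -0.013 to 0.20, Cldn7 from -0.011 to 0.025, Cldn10 from -0.052 to 0.073, Cldn23 from -0.052 to 0.072, Ildr1 from -0.090 to 0.039, F11r from -0.046 to 0.031, Tjp1 from -0.065 to 0.068, Magi3 from -0.067 to 0.17 and Pard3 from -0.064 to 0.00091. Signal over background is unknown, which limits what the dim genes can show.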

Other observations

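Cldn8 stood among few genes with so wide a distance between hBD-2 mice 1 and 3 and the other 6; these genes were picked after that distance had been seen. Tgm3, a transglutaminase, came before it, at log2 levels of 10.73 and 10.56 in these mice against 5.90 to 6.49 in the others. Sptssb, a subunit of the enzyme that begins sphingolipid synthesis, was lower there, at 5.42 and 5.68 against 9.02 to 9.68. Abca12, a lipid transporter of the skin barrier, was also lower, at 5.50 and 6.11 against 8.91 to 9.73.

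No gene of 4 further epithelial lists passed over all genes by limma. At an unadjusted p under 0.05 the background was 5.85% of all genes higher and 5.98% lower. Of 7 goblet cell markers 1 was higher at an unadjusted p under 0.05, Tff3 at 0.26 (SE 0.11), with Fcgbp at 0.25 (SE 0.22). Of 7 markers of crypt stem and cycling cells 1 was higher, Smoc2 at 0.38 (SE 0.10, adjusted p = 0.218 by limma), with Lgr5 at 0.16 (SE 0.095). Of 9 small intestinal and proximal genes none was under 0.05, with Lct at 0.32 and Rbp2 at 0.20. The widest difference of that list, noted after its value was seen, was that of the fatty acid binding protein Fabp2 at -0.86 (SE 0.68), whose 2 lowest mice were hBD-2 1 and hBD-2 3, at 6.75 and 6.996 against 8.07 to 9.72 in the other 6. Among the 6 posterior Hox genes Hoxd12 was at 0.36 (SE 0.086, adjusted p = 0.158 by limma), with groups that did not overlap, and Hoxd13 at 0.83 (SE 0.42), or -0.085 without hBD-2 1 and hBD-2 3. The median difference of these 6 was 0.67.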
